A study of Mus musculus with 4 samples.

Results

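The transcripts described here are 8 RNAs that are encoded by the mitochondrial genome and were counted in mouse medulloblastoma cells. They are the mRNAs mt-Nd1, mt-Nd2, mt-Nd4, mt-Nd5, mt-Cytb and mt-Co1 and the ribosomal RNAs (rRNAs) mt-Rnr1 and mt-Rnr2. They were chosen by name and make up 8 of the 15002 genes in each of the 4 tables, and 8 of the 22 rows with a mitochondrial gene name. The other 14 rows are mt-Nd6 and 13 tRNAs. The donors were untreated mice with medulloblastoma, harvested at postnatal day 16, with the genotype hGFAP-Cre, SmoM2, Prkaa1 fl/fl and Prkaa2 fl/fl. SmoM2 is an activated form of Smoothened that switches on Sonic hedgehog (SHH) signalling, and Prkaa1 and Prkaa2 encode the catalytic subunits of AMP-activated protein kinase. Recombination, and with it the deletion, is limited to cells in which the hGFAP-Cre driver was active or to their progeny, so vessel and immune cells in the same samples need not carry it. All 4 tumours share every one of these alleles and form 1 group. The study set out to compare them with tumours that kept Prkaa1 and Prkaa2, but that comparison was not analysed here. The labels do not say whether the 4 mice were littermates, and each tumour is 1 library made by Drop-seq, in which droplets join single cells with beads that carry barcodes, and each captured RNA molecule is counted once through a unique molecular identifier (UMI).

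The mitochondrial genome codes for 13 proteins, all of them subunits of the oxidative phosphorylation complexes in the inner mitochondrial membrane, together with the rRNAs and tRNAs needed to make them. Both DNA strands are transcribed as long precursors that are cut at the tRNAs, so the levels of the separate RNAs depend mostly on processing and stability. Most of the mRNAs receive a short poly(A) tail, which in some of them also completes the stop codon, while the mitochondrial rRNAs carry only very short A extensions. Granule neuron progenitors of the cerebellum, the cells from which SHH medulloblastoma arises, shift their metabolism as they leave the cell cycle and become neurons.

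The ends of the 6 mRNAs are shown because Drop-seq captures RNA by its A-rich 3′ end. Sequences and positions are from GENCODE M21 transcripts (GRCm38, the build that the submitters name as mm10), on the plus strand of the mitochondrial chromosome, written here as chrM. Each line holds the last 30 bases, with the stop codon, or the single T that remains of it, in capitals.
mt-Nd1, chrM:3678-3707: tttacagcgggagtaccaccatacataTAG
mt-Nd2, chrM:4922-4951: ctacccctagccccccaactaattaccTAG
mt-Co1, chrM:6843-6872: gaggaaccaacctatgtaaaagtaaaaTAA
mt-Nd4, chrM:11515-11544: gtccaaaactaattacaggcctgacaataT
mt-Nd5, chrM:13536-13565: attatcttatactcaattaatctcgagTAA
mt-Cytb, chrM:15259-15288: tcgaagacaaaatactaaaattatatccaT

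The annotated lengths of mt-Nd4 (1378 bases) and mt-Cytb (1144 bases) are not multiples of 3, and both transcripts end in the T of an incomplete stop codon. The other 4 mRNAs end in a whole stop codon. For the rRNAs, the stretch of 20 bases with the most A is shown in capitals with 10 bases on either side, since an internal A-rich stretch can also pair with the oligo(dT) of a bead.
mt-Rnr1, chrM:715-754: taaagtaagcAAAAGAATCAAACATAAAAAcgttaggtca
mt-Rnr2, chrM:1478-1517: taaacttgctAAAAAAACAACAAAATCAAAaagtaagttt

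The window in mt-Rnr2 (1582 bases in all) held 16 A, with a longest run of 7, and lay 1168 bases before the 3′ end. The window in mt-Rnr1 (955 bases) held 15 A and lay 280 bases before the end. The longest run of A was 5 in mt-Rnr1 and mt-Cytb, 6 in mt-Nd1, 7 in mt-Nd4, mt-Nd5 and mt-Co1, and 8 in mt-Nd2. Runs of 6 or more A occurred 4 times in mt-Rnr2, 3 times in mt-Nd2 and not at all in mt-Rnr1 or mt-Cytb. The tables do not say where on a transcript a UMI was primed, so the part of these stretches in the counts was not tested.

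Barcodes with at least 500 UMIs were used, with no limit on the mitochondrial share. These were 766, 807, 566 and 1083 barcodes in tumours 1 to 4, with medians of 826.5, 749.0, 806.5 and 972.0 UMIs. They held between 528971 and 1253618 UMIs per tumour. Prkaa1 had 3 to 16 UMIs and Prkaa2 had 5 to 14 UMIs per tumour, too few to check the deletion, and a 3′ count need not show the loss of a floxed exon. The libraries fell into 2 pairs over the whole transcriptome. The chi-square statistic of the gene counts was 3.91 times its degrees of freedom between tumours 1 and 2 and 3.49 times between tumours 3 and 4, against 20.4 to 34.6 times in the other 4 pairs. No library was a copy of another, and a single barcode was shared, between tumours 2 and 4. The labels give no batch, so values are given by tumour and no test was made between the pairs.

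The 8 transcripts together took up 11.99% and 12.6% of all UMIs in tumours 1 and 2, and 2.64% and 2.10% in tumours 3 and 4. The 2 rRNAs made up most of this. Their summed share was 9.74%, 10.7%, 1.72% and 1.21% of UMIs in tumours 1 to 4 (mean 5.85% ± 5.09, SD, n = 4), and the highest tumour exceeded the lowest 8.89-fold. The summed share of the 6 mRNAs was 2.26%, 1.89%, 0.928% and 0.895% (mean 1.49% ± 0.687, SD, n = 4), with a 2.52-fold range. Tumours 1 and 2 were therefore high and tumours 3 and 4 low for both kinds of RNA, and the spread was wider for the rRNAs.

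Of the difference in the 8 transcripts between a high and a low tumour, mt-Rnr2 alone made up 81.4% to 86.4% over the 4 such pairs. The mRNAs made up 9.47% to 14.2% and mt-Rnr1 4.09% to 4.44%. The rRNA part of the UMIs of the 8 transcripts was 81.2% (exact 95% interval 80.9 to 81.4), 85.0% (84.8 to 85.3), 64.9% (64.1 to 65.7) and 57.4% (56.8 to 58.0) in tumours 1 to 4. These intervals and those below cover counting error only. There were 4.32, 5.68, 1.85 and 1.35 rRNA UMIs for each mRNA UMI. None of the 4 intervals overlapped another. The ratio also moved with the depth of the barcodes: at 500 to under 1000 UMIs it was 4.44, 6.46, 1.93 and 1.92 rRNA UMIs per mRNA UMI, and at 2000 or more 3.20, 3.04, 2.04 and 1.02. The order of tumours 1 and 2 was thus not the same in these bins, whereas tumour 3 was above or close to tumour 4 and tumours 1 and 2 stayed above both.

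Other measures moved with this split. Genes of cytosolic ribosomal proteins took up 2.17% and 2.70% of nuclear-gene UMIs in tumours 1 and 2, and 5.11% and 5.60% in tumours 3 and 4. A list of nuclear-retained RNAs led by Malat1 took up 3.44%, 2.63%, 2.14% and 1.73%. Red blood cell genes took up 0.0110% and 0.0261% in tumours 1 and 2 and 0.00369% and 0.00367% in tumours 3 and 4. Dissociation-stress genes took up 0.175% and 0.187%, against 0.316% and 0.243%. Lists of other cells split the same way, with microglial and macrophage markers at 0.0524% and 0.0763% against 0.0286% and 0.0425%, endothelial markers at 0.0242% and 0.0171% against 0.00932% and 0.0106%, mural or fibroblast markers at 0.0441% and 0.0104% against 0.00408% and 0.00668%, and astrocyte or radial glia markers at 0.0894% and 0.0908% against 0.0418% and 0.0656%. So did the G2/M list (1.05% and 1.02% against 0.584% and 0.743%) and the granule neuron list (0.970% and 0.904% against 0.667% and 0.549%). The S phase and oligodendrocyte lineage lists did not separate the pairs. The part of these measures in the difference was not tested.

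mt-Rnr2, the 16S rRNA of the large mitoribosomal subunit, had 9.21%, 10.2%, 1.60% and 1.11% of UMIs in tumours 1 to 4, a 9.16-fold range. It was the most abundant of the 8 in every tumour. mt-Rnr1, the 12S rRNA of the small subunit, had 0.531%, 0.524%, 0.116% and 0.0925%, a 5.74-fold range. The mature rRNAs are needed in equal number in a ribosome, but 17.3, 19.5, 13.8 and 12.05 UMIs of mt-Rnr2 were counted for each UMI of mt-Rnr1 in tumours 1 to 4.

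Among the subunits of complex I, the NADH dehydrogenase that feeds electrons into the chain, mt-Nd1 had 0.665%, 0.574%, 0.271% and 0.281% of UMIs in tumours 1 to 4. mt-Nd5, a large proton-pumping subunit, had 0.489%, 0.410%, 0.110% and 0.106%, and its 4.61-fold range was the widest among the 6 mRNAs. mt-Nd2 had 0.332%, 0.254%, 0.119% and 0.104%, a 3.20-fold range. mt-Nd4 had 0.207%, 0.158%, 0.137% and 0.121%, and with 1.71-fold it had the narrowest range. The complex I transcripts thus did not scale together between the tumours.

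mt-Cytb, the cytochrome b of complex III, had 0.416%, 0.374%, 0.202% and 0.218% of UMIs, a 2.06-fold range. mt-Co1, the catalytic subunit of cytochrome c oxidase (complex IV), had 0.145%, 0.121%, 0.0879% and 0.0654%, a 2.22-fold range. For all 8 transcripts the lower of tumours 1 and 2 lay above the higher of tumours 3 and 4, by a factor of 1.15 for mt-Nd4 up to 5.75 for mt-Rnr2.

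**Figure D1:**
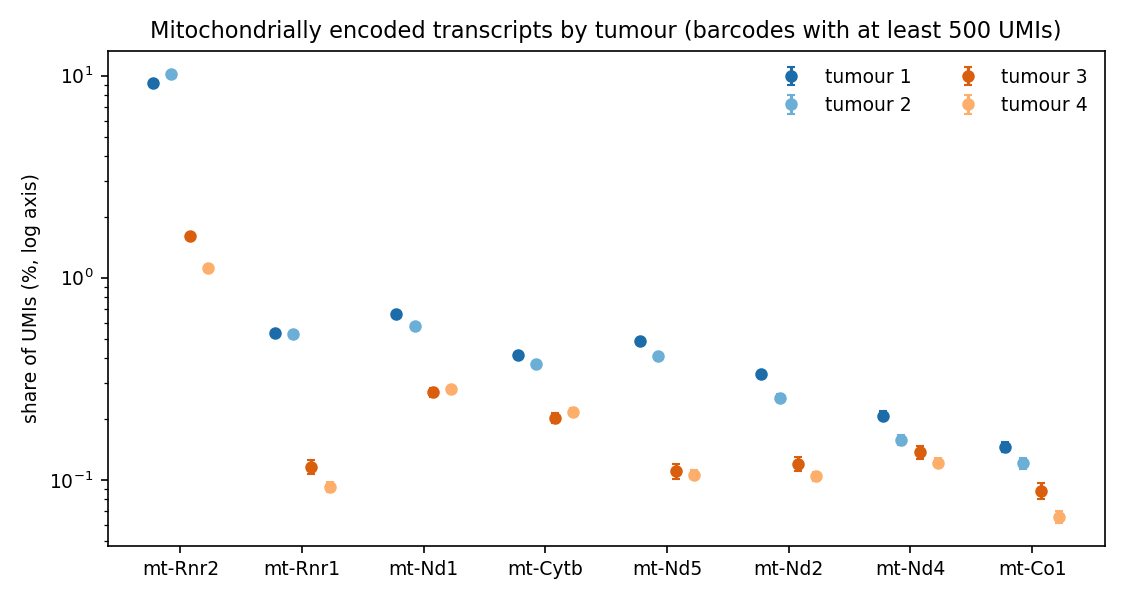
Share of all UMIs (%, logarithmic axis) of each of the 8 transcripts in each tumour. Points are pooled shares of barcodes with at least 500 UMIs and bars are exact 95% intervals, often smaller than the point. The 2 rRNAs at the left show a wider gap between tumours 1 and 2 and tumours 3 and 4 than mt-Nd4 and mt-Co1 at the right.

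The make-up of the mRNA pool differed as well. mt-Nd1 took up an almost constant part of the UMIs of the 6 mRNAs, 29.5%, 30.3%, 29.2% and 31.4% by tumour (mean 30.1% ± 0.965, SD, n = 4). mt-Nd5 took up 21.7% and 21.7% in tumours 1 and 2, and 11.9% and 11.9% in tumours 3 and 4. mt-Nd4 went the other way, with 9.19% and 8.36% in tumours 1 and 2 and 14.8% and 13.6% in tumours 3 and 4. These 2 mRNAs lie next to each other on the heavy-strand transcript, separated only by tRNAs. mt-Cytb took up 18.5%, 19.8%, 21.8% and 24.3%, mt-Nd2 14.7%, 13.4%, 12.9% and 11.6%, and mt-Co1 6.43%, 6.38%, 9.47% and 7.31%.

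**Figure D2:**
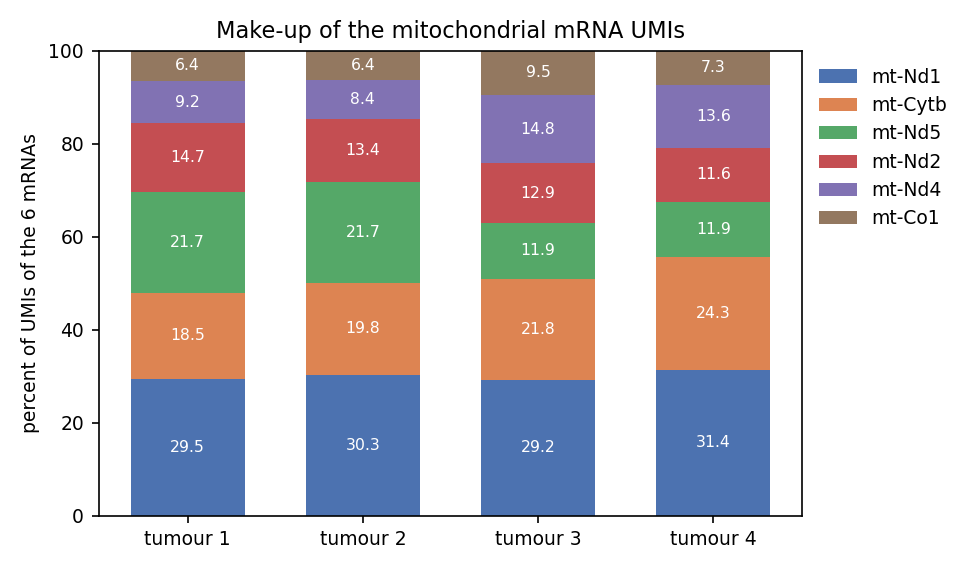
Stacked bars of the UMIs of the 6 mitochondrial mRNAs, as percent of their sum, in each tumour. The mt-Nd1 segment stays between 29.2% and 31.4%, the mt-Nd5 segment falls from 21.7% in tumours 1 and 2 to 11.9% in tumours 3 and 4, and the mt-Nd4 segment is larger in tumours 3 and 4.

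For a comparison between transcripts, shares were divided by annotated length, although a 3′ UMI is counted once per molecule whatever its length. Per kilobase, mt-Rnr2 had 5.82%, 6.45%, 1.01% and 0.705% of UMIs in tumours 1 to 4, and mt-Rnr1 had 0.556%, 0.549%, 0.121% and 0.0969%. mt-Nd1 led the mRNAs with 0.695%, 0.600%, 0.283% and 0.293% per kilobase, followed in each tumour by mt-Cytb with 0.364%, 0.327%, 0.177% and 0.190%. mt-Nd2 came next with 0.320%, 0.245%, 0.115% and 0.1001%. mt-Co1 was the lowest member per kilobase in every tumour, at 0.0939%, 0.0781%, 0.0569% and 0.0423%. Between these, mt-Nd5 exceeded mt-Nd4 per kilobase in tumours 1 and 2 (0.268% against 0.1505% and 0.225% against 0.115%) and lay below it in tumours 3 and 4 (0.0604% against 0.0995% and 0.0582% against 0.0882%).

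The remaining mitochondrial rows were low. mt-Nd6, the only mRNA of the light strand, had 0.0308%, 0.0249%, 0.0263% and 0.0177% of UMIs in tumours 1 to 4, and tumour 3 lay above tumour 2. The 13 tRNA rows together had 0.0566%, 0.0341%, 0.0140% and 0.0126%. mt-Tp, the proline tRNA, was the highest of them, with 0.00265% to 0.0198%. The other 12 were mt-Ta, mt-Tc, mt-Tf, mt-Ti, mt-Tl1, mt-Tl2, mt-Tm, mt-Tq, mt-Tr, mt-Ts2, mt-Tt and mt-Tv, none of them above 0.00509% in any tumour. mt-Tf, mt-Tl2 and mt-Tr had a count of 0 in tumours 3 and 4, which allows shares of up to 0.000567% and 0.000239%. The other 6 mRNAs of the mitochondrial genome were not analysed here.

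Within a tumour, single barcodes varied over a wide range. The median barcode of tumours 1 to 4 had 10.2%, 11.6%, 2.31% and 1.77% of its UMIs in the 8 transcripts. The middle 90% of barcodes ran from 3.97% to 28.8% in tumour 1, from 5.53% to 28.0% in tumour 2, from 0.912% to 5.05% in tumour 3 and from 0.698% to 4.34% in tumour 4. More than 10% of UMIs were in the 8 transcripts in 392 of 766 barcodes (51.2%) of tumour 1 and 511 of 807 (63.3%) of tumour 2, but in 5 of 566 (0.883%) of tumour 3 and 17 of 1083 (1.57%) of tumour 4. The shift between tumours thus covered most barcodes and was not limited to a few extreme ones.

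mRNA and rRNA shares went together across barcodes in tumour 1 (Pearson r = 0.61, Spearman rho = 0.58, 766 barcodes) and less so in tumour 2 (r = 0.36, rho = 0.24, 807 barcodes). In tumours 3 and 4 they were close to unrelated (r = 0.16 and rho = 0.19 over 566 barcodes, r = 0.07 and rho = 0.10 over 1083 barcodes). Barcodes of a tumour share its library and depth, so these values are descriptions. When barcodes of a tumour were ranked into quartiles by mRNA share, the rRNA share of tumour 1 was 5.28%, 8.01%, 9.29% and 17.0% from the lowest to the highest quartile. In tumour 2 it was 9.65%, 9.56%, 9.61% and 14.0%, and in tumour 3 it was 1.52%, 1.73%, 1.59% and 1.99%, each highest in the top quartile. In tumour 4 it was 1.40%, 1.02%, 1.14% and 1.33%, with no steady course, while the mRNA share went from 0.328% to 1.48%.

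The course of the rRNA and mRNA shares with the depth of a barcode differed between tumours. In tumour 2, which had the most barcodes under 500 UMIs, the rRNA share was 17.7% at 300 to under 500 UMIs, 12.01% at 500 to under 1000, 9.65% at 1000 to under 2000 and 6.75% at 2000 or more. Its mRNA share went the other way, at 1.03%, 1.86%, 1.86% and 2.22%. In tumour 4 the rRNA share was 3.18%, 1.56%, 1.06% and 0.984% over the same bins, and its mRNA share stayed between 0.815% and 0.964%. In tumour 1 the rRNA share was 11.5%, 10.1%, 10.1% and 7.42%, also lowest in the deepest bin. In tumour 3 it showed no steady course, at 2.21%, 1.70%, 1.66% and 2.04%. The mRNA share of tumour 1 was 2.05%, 2.28%, 2.20% and 2.32%. The mRNA share of tumour 3 was 0.904%, 0.883%, 0.975% and 0.997%, which is close to that of tumour 4 in each bin. The bin of 2000 or more UMIs held only 36, 20, 19 and 112 barcodes in tumours 1 to 4. Under 300 UMIs the rRNA share was 8.66%, 14.6%, 2.53% and 3.96% in tumours 1 to 4. That was below the share at 300 to under 500 UMIs in tumours 1 and 2 and above it in tumours 3 and 4.

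**Figure D3:**
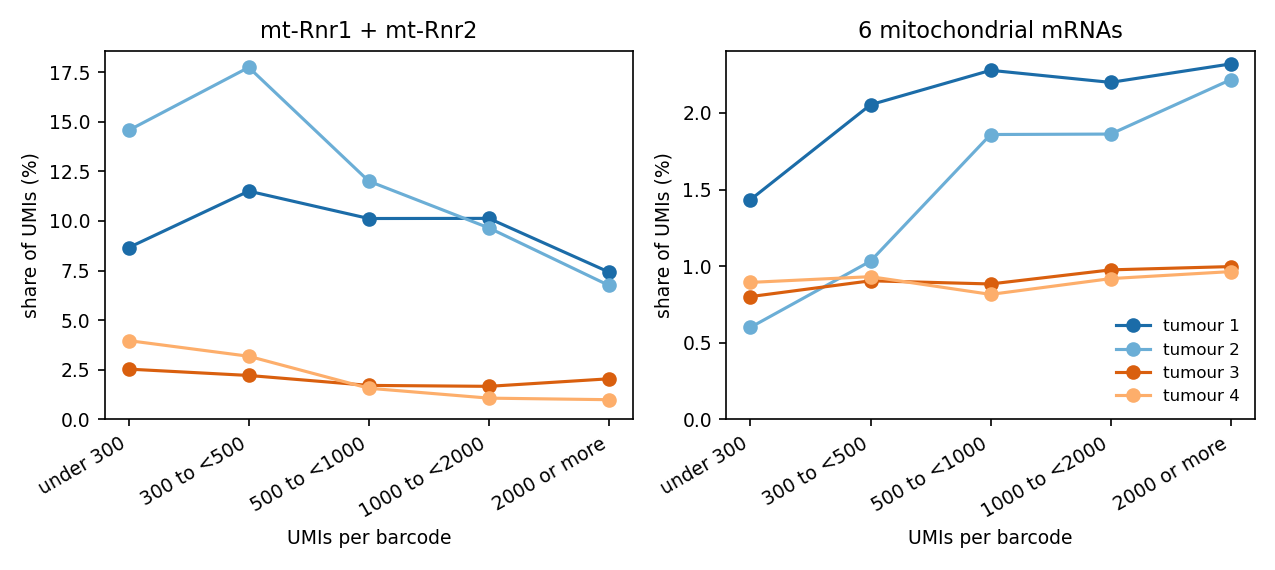
Share of UMIs (%) of the 2 rRNAs (left) and of the 6 mRNAs (right) in barcodes binned by their number of UMIs, by tumour, with pooled UMIs per bin and all deposited barcodes. The rRNA share of tumour 2 drops from 17.7% to 6.75% between the second and the last bin while its mRNA share rises from 1.03% to 2.22%.

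In every bin from 500 UMIs upwards, tumours 1 and 2 lay above tumours 3 and 4 in both shares. At 2000 or more UMIs the rRNA shares were 7.42%, 6.75%, 2.04% and 0.984%. At the limit of 500 UMIs itself, barcodes just inside (500 to under 550 UMIs) had an rRNA share of 11.9%, 15.9%, 1.95% and 2.05% in tumours 1 to 4, and barcodes just outside (450 to under 500 UMIs) had 9.13%, 15.2%, 2.02% and 2.60%.

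The next comparison asked how the transcripts differ between dividing, non-dividing and neuronal cells of the same tumour. Cells were clustered on nuclear genes only, after removal of 21 doublets, so that no mitochondrial row took part in making the classes. A G2/M-like cluster of 362 cells had 18 markers of its list, such as Cenpf, Aspm and Prc1, among its 50 leading genes. The S phase-like cluster of 671 cells had 8 markers, Tyms among them. A granule neuron-like cluster of 551 cells had 9 markers, with Grin2b in the lead. No cluster earned the name of an SHH-responsive progenitor. The rule for non-dividing cells asked for unnamed clusters with both cell cycle lists below the other cells. It was met by 2 clusters, one of 489 cells led by Abca4, Pdzrn3 and Cntn2 and a small one of 34 cells led by Ttr. The Ttr-led cells were left out after their high mitochondrial share had been seen, which departs from the rule, and results that turn on them are given with and without them. In the Abca4-led cluster the neuronal list was higher than in other cells (mean log2 fold 0.55) and the SHH list lower (-0.63), so these are called the Abca4-led non-dividing cells and not progenitors. The median cell had 1541.0 UMIs in the G2/M-like class, 835.0 in the S phase-like class, 762.0 in the Abca4-led class and 769.0 in the neuron-like class.

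The mRNA share was higher in dividing than in neuronal cells in every tumour. It was 2.14%, 1.81%, 0.869% and 0.899% in G2/M-like cells of tumours 1 to 4 and 2.17%, 1.93%, 0.900% and 0.881% in S phase-like cells. In Abca4-led non-dividing cells it was 1.89%, 1.77%, 0.922% and 0.862%, and in granule neuron-like cells 1.69%, 1.40%, 0.761% and 0.776%. Within tumours, the log2 ratio to neuronal cells was 0.28 ± 0.09 for G2/M-like, 0.31 ± 0.12 for S phase-like and 0.23 ± 0.09 for Abca4-led cells (SD, n = 4), positive in 4 of 4 tumours each time. Over the alternatives run, these means ranged from 0.076 (classes by marker UMIs) to 0.31, from 0.21 to 0.46 and from 0.19 to 0.47, the last with the Ttr-led cells pooled with the Abca4-led ones. The exact paired sign-flip permutation test (two-sided) gave p = 0.13 for each, the smallest value that 4 tumours allow, and 0.30 after adjustment over the 12 comparisons made. By their means, S phase-like cells came first (1.47% ± 0.676), then G2/M-like (1.43% ± 0.645) and Abca4-led cells (1.36% ± 0.545). The order of these 3 classes was not the same in all tumours, and the G2/M-like and Abca4-led classes differed by a log2 ratio of 0.05 ± 0.11 (SD, n = 4), which is within its spread. With the Ttr-led cells pooled, that ratio was -0.19 ± 0.22.

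The summed rRNA share, most of it mt-Rnr2, did not follow. In G2/M-like cells it was 8.57%, 8.02%, 1.65% and 0.977% in tumours 1 to 4, in S phase-like cells 8.95%, 10.95%, 1.46% and 1.0%, in Abca4-led cells 8.56%, 10.8%, 1.63% and 1.40%, and in neuron-like cells 7.49%, 9.05%, 2.00% and 1.48%. The log2 ratio of G2/M-like to neuron-like cells was 0.19, -0.17, -0.28 and -0.60, a mean of -0.21 ± 0.33 (SD, n = 4), with an exact sign-flip p of 0.375. For S phase-like cells it was 0.26, 0.28, -0.46 and -0.56, so the dividing cells were above the neuronal ones in tumours 1 and 2 and below them in tumours 3 and 4 (mean -0.12 ± 0.45, exact p = 0.625). The sum of the rRNAs thus had no common direction over the 4 tumours. mt-Rnr1 alone was higher than in neuron-like cells in 4 of 4 tumours for each of the other 3 classes, but mostly within counting error. For G2/M-like cells its rise was beyond counting error in tumour 1 only. For S phase-like cells it was so in tumours 1 and 2, and for Abca4-led cells in tumour 2. In the other tumours the interval of the log2 ratio held both signs, as for G2/M-like cells of tumour 2 (0.05, -0.14 to 0.25).

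The rRNAs thus made up a smaller part of the mitochondrial UMIs in dividing than in neuronal cells of all 4 tumours. It was 80.0%, 81.6%, 65.5% and 52.1% of the UMIs of the 8 transcripts in G2/M-like cells and 80.5%, 85.0%, 61.8% and 53.2% in S phase-like cells. In Abca4-led cells it was 81.9%, 85.8%, 63.8% and 61.8%, and in neuron-like cells 81.6%, 86.6%, 72.5% and 65.6%. The part in G2/M-like cells minus that in neuron-like cells was -1.63, -4.93, -6.96 and -13.5 percentage points, a mean of -6.76 ± 5.01 points (SD, n = 4). For S phase-like cells it was -1.09, -1.58, -10.6 and -12.4 points, a mean of -6.44 ± 5.94 points. Each had an exact sign-flip p of 0.13, the smallest possible, and an adjusted p of 0.30. The direction was the same in all 13 alternatives run for G2/M-like cells and all 11 for S phase-like cells, with means from -8.47 to -4.51 and from -8.22 to -4.44 points. The difference of Abca4-led cells from neuron-like cells, -3.22 ± 4.02 points, was within its spread and had the opposite sign in tumour 1. Its mean ranged from -4.39 to -1.40 points over 10 alternatives.

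**Figure D4:**
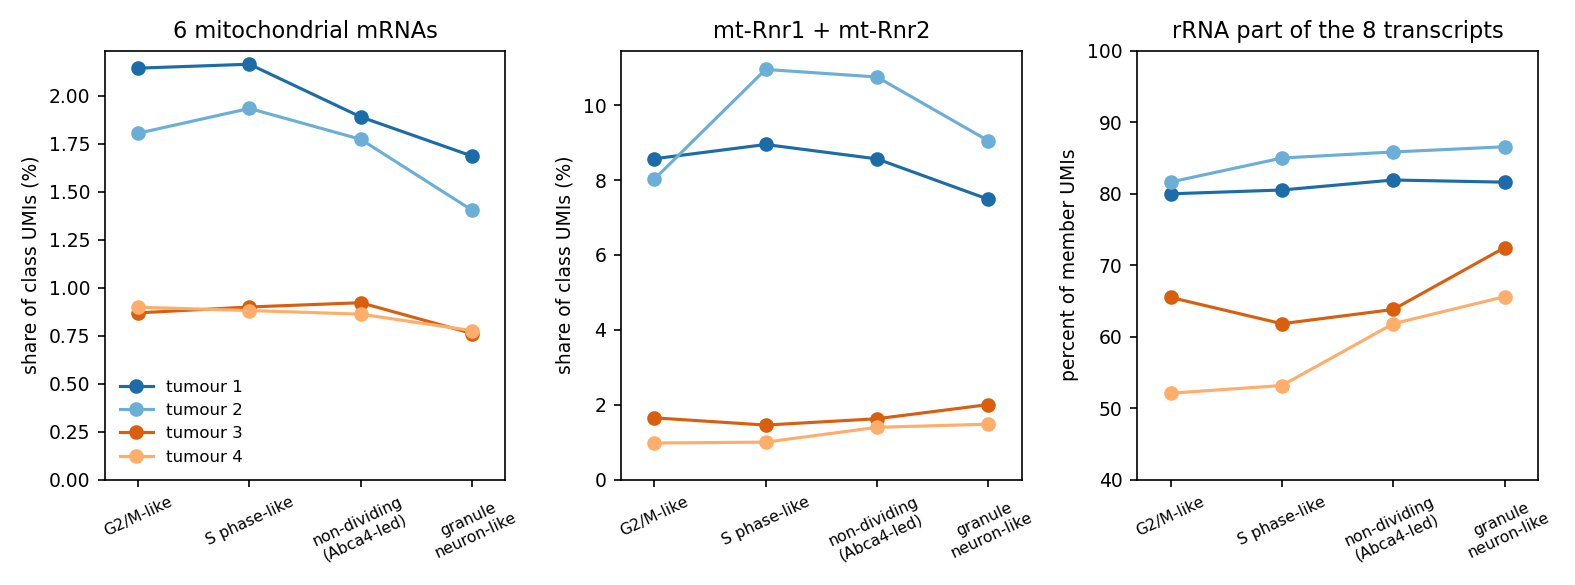
Share of class UMIs (%) of the 6 mRNAs (left) and the 2 rRNAs (middle), and the rRNA part (%) of the UMIs of the 8 transcripts (right, axis from 40%), in 4 cell classes of each tumour. Lines join the classes of a tumour and stand for no order in time. The mRNA share of G2/M-like and S phase-like cells lies above that of neuron-like cells in all 4 tumours, and the rRNA part lies below it.

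Depth and other values moved with the classes too. The median G2/M-like cell had 1426.0, 1202.0, 1493.0 and 1979.0 UMIs in tumours 1 to 4, the S phase-like cell 814.0, 694.0, 857.0 and 1024.0 and the neuron-like cell 782.0, 741.5, 731.0 and 817.0. S phase-like cells were thus deeper than neuron-like cells in tumours 1, 3 and 4 and shallower in tumour 2. Nuclear-retained RNAs took up 3.27%, 2.30%, 1.90% and 1.62% of nuclear-gene UMIs in G2/M-like cells, 2.72%, 2.21%, 1.67% and 1.43% in S phase-like cells and 4.79%, 3.34%, 3.46% and 2.86% in neuron-like cells. Both dividing classes were thus below neuron-like cells in 4 of 4 tumours. Ribosomal protein genes took up 1.99%, 2.23%, 5.23% and 5.32% in G2/M-like cells, 2.21%, 2.83%, 5.45% and 6.15% in S phase-like cells and 1.49%, 2.38%, 2.08% and 2.76% in neuron-like cells. They were higher than in neuron-like cells in 4 of 4 tumours for S phase-like and in 3 of 4 for G2/M-like cells. The part of these in the results was not tested. Markers of other cells were present at low levels in the classes compared. Astrocyte or radial glia markers took up 0.0629%, 0.0841%, 0.0449% and 0.0601% of nuclear-gene UMIs in G2/M-like cells and 0.0869%, 0.0918%, 0.0395% and 0.0516% in S phase-like cells. In neuron-like cells they took up 0.0588%, 0.0584%, 0.0220% and 0.0391%, below both dividing classes in 4 of 4 tumours. Aldh1l1 was at 0 in all 3 of these classes, and Gja1 and Ntsr2 in neuron-like cells. Of 12 oligodendrocyte lineage markers, 12 had UMIs in G2/M-like, 11 in S phase-like and 9 in neuron-like cells, at 0.0322% to 0.0628%, 0.0412% to 0.0654% and 0.0390% to 0.0675% of all UMIs. Their part in the results was not tested. In G2/M-like cells, 3 of 10 endothelial markers had UMIs, at 0.000661% to 0.00230% of all UMIs, and in neuron-like cells 5 of 10, at 0.000637% to 0.00281%. Microglial and macrophage markers, 12 of 13 with UMIs in G2/M-like and 11 of 13 in neuron-like cells, reached at most 0.0185% and 0.0138%, and P2ry12 was at 0 in both.

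Single transcripts were tested with edgeR's quasi-likelihood test on UMI counts summed by tumour and class, with the tumour as a block and Benjamini-Hochberg adjustment over all 3621 genes tested. All 8 members passed the filter on low counts. In the test of G2/M-like against granule neuron-like cells, 3 of the 8 rose and none fell at an adjusted p under 0.05. Of all genes tested, 38.0% passed in either direction, 20.7% of them higher and 17.3% lower, so 3 of 8 is near the background of that fit. DESeq2 called the same 3 members, where 13.2% of 9217 genes passed, and edgeR with no filter on low counts called these and mt-Rnr2, as lower, where 13.2% of 14580 genes did. With the Ttr-led cells in the fit, as the rule reads, mt-Nd1 alone was called, at 35.7% of genes. The median log2 fold of the 8 was 0.28, against 0.08 for all genes tested.

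mt-Nd1, the membrane subunit of complex I at which ubiquinone binds, showed the clearest difference. Its share was 0.679%, 0.555%, 0.276% and 0.283% in G2/M-like cells of tumours 1 to 4 and 0.4996%, 0.392%, 0.180% and 0.228% in neuron-like cells, so G2/M-like cells were higher in 4 of 4 tumours. The log2 fold was 0.49 ± 0.12 (SE), with an edgeR adjusted p of 0.000447. It passed in 19 of 21 alternatives, over which the adjusted p ranged from 1.75e-07 to 0.598 and the log2 fold from 0.28 (classes by marker UMIs, adjusted p = 0.0316) to 0.52. Its call was lost with at least 1000 UMIs per barcode (0.34, adjusted p = 0.0505) and when the tumour was not used as a block (0.52, adjusted p = 0.598).

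mt-Cytb had 0.405%, 0.371%, 0.190% and 0.204% in G2/M-like and 0.311%, 0.295%, 0.144% and 0.187% in neuron-like cells. Its log2 fold was 0.34 ± 0.12 (SE, edgeR adjusted p = 0.0224), higher in 4 of 4 tumours, and it passed in 9 of 21 alternatives (log2 fold from 0.12 to 0.37, adjusted p from 0.00266 to 0.673). mt-Nd2 had 0.310%, 0.222%, 0.115% and 0.119% against 0.235%, 0.183%, 0.103% and 0.0955%. Its log2 fold was 0.34 ± 0.13 (SE, edgeR adjusted p = 0.0355), again higher in 4 of 4 tumours, but it passed in only 6 of 21 alternatives (log2 fold from 0.096 to 0.40, adjusted p from 0.0276 to 0.757) and lost its call without any one of the 4 tumours. Without tumours 1, 2, 3 and 4 in turn, its adjusted p was 0.203, 0.106, 0.0510 and 0.147, and that of mt-Cytb was 0.143, 0.102, 0.0746 and 0.0444. The calls of mt-Cytb and mt-Nd2 are therefore weakly held.

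Among those that did not pass, mt-Nd5 had a log2 fold of 0.26 ± 0.13 and mt-Nd4 of 0.22 ± 0.13 (SE), with edgeR adjusted p-values of 0.0924 and 0.205. mt-Co1 had a log2 fold of -0.04 ± 0.15 (SE, adjusted p = 0.861). Its share was 0.142%, 0.112%, 0.0691% and 0.0597% in G2/M-like and 0.114%, 0.108%, 0.116% and 0.0630% in neuron-like cells, and the largest gap lay in tumour 3, in favour of neuron-like cells. mt-Rnr1 had a log2 fold of 0.30 ± 0.13 (SE, adjusted p = 0.0649). With clusters at resolution 2, mt-Nd5 (0.35, adjusted p = 0.0116) and mt-Rnr1 (0.27, adjusted p = 0.04997) passed, and without centring mt-Rnr1 did (0.30, adjusted p = 0.0260).

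mt-Rnr2 had 8.05%, 7.62%, 1.54% and 0.883% of UMIs in G2/M-like cells of tumours 1 to 4 and 7.13%, 8.66%, 1.90% and 1.40% in neuron-like cells. Its log2 fold was -0.22 ± 0.12 (SE, edgeR adjusted p = 0.144), negative in 3 of 4 tumours. In a fit of tumours 3 and 4 alone it fell by 0.51 on the log2 scale (adjusted p = 3.61e-06), and in a fit of tumours 1 and 2 alone the value was -0.04 (adjusted p = 0.849). Without tumour 1 it was -0.38 (adjusted p = 0.0249) and without tumour 2 it was -0.30 (adjusted p = 0.00349). With at least 1000 UMIs per barcode it was -0.34 (adjusted p = 0.0185). It passed, as lower, in 8 of 21 alternatives (adjusted p from 3.61e-06 to 0.999), among them no filter on low counts (-0.20, adjusted p = 0.0333), a mitochondrial share of at most 10% (-0.23, 0.0236), clusters at resolution 0.5 (-0.17, 0.0499) and classes by marker UMIs (-0.24, 0.0196). The difference between the pairs of tumours was not tested.

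Between S phase-like and granule neuron-like cells, 4 of 8 members rose and none fell, with 42.5% of all 3621 genes passing in either direction, 23.3% higher and 19.3% lower. That share of members is again near the background of this fit. DESeq2 called 3 of the 4, without mt-Rnr1, where 15.3% of genes passed, and edgeR with no filter on low counts called all 4, where 14.8% did. With the Ttr-led cells in the fit, mt-Nd1 and mt-Cytb alone were called, at 40.4% of genes. The medians of log2 fold were 0.28 for members and 0.08 for all genes tested. mt-Nd1 had 0.669%, 0.634%, 0.270% and 0.297% in S phase-like cells of tumours 1 to 4, all above the neuron-like values of the same tumour, with a log2 fold of 0.54 ± 0.12 (SE, edgeR adjusted p = 0.000109). It passed in 17 of 19 alternatives (log2 fold from 0.33 to 0.67, adjusted p from 1.91e-09 to 0.522). As for G2/M-like cells, it was lost with at least 1000 UMIs per barcode (0.33, adjusted p = 0.0506) and without the block (0.55, adjusted p = 0.522).

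mt-Cytb, at 0.413%, 0.371%, 0.214% and 0.218%, rose by a log2 fold of 0.39 ± 0.12 (SE, edgeR adjusted p = 0.00616) and passed in 13 of 19 alternatives (log2 fold from 0.19 to 0.44), though not without tumour 3 (adjusted p = 0.0623). mt-Nd2, at 0.310%, 0.275%, 0.116% and 0.0956%, rose by 0.33 ± 0.13 (adjusted p = 0.0369) and passed in 10 of 19 (log2 fold from 0.031 to 0.44), with adjusted p-values of 0.157, 0.426 and 0.0723 without tumours 1, 2 and 3. mt-Rnr1, at 0.450%, 0.552%, 0.102% and 0.0911% against 0.358%, 0.386%, 0.0980% and 0.0802% in neuron-like cells, rose by 0.33 ± 0.13 (adjusted p = 0.0367) and passed in 9 of 19 (log2 fold from 0.096 to 0.57). Without tumours 1 to 4 in turn its adjusted p was 0.118, 0.359, 0.0569 and 0.0641, so its call was lost each time.

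The other 4 did not pass. mt-Nd5 and mt-Nd4 had log2 folds of 0.23 ± 0.12 and 0.19 ± 0.13 (SE), and mt-Co1 of -0.05 ± 0.15. mt-Nd5 passed in 4 of 19 alternatives, with clusters at resolution 2 (0.60, adjusted p = 1.68e-05), with doublets kept (0.49, 0.00344), with a mitochondrial share of at most 10% (0.30, 0.0266) and with at least 500 nuclear UMIs (0.28, 0.0491). mt-Nd4 passed in 1, at resolution 2 (0.33, adjusted p = 0.0308). mt-Rnr2 had 8.499%, 10.4%, 1.35% and 0.909% in S phase-like cells and a log2 fold of -0.13 ± 0.12 (SE, edgeR adjusted p = 0.404). It was higher than in neuron-like cells in tumours 1 and 2 and lower in tumours 3 and 4. In fits of either pair alone the log2 fold was 0.20 (tumours 1 and 2, adjusted p = 0.216) and -0.59 (tumours 3 and 4, adjusted p = 2.99e-08). Without tumour 2 it was -0.34 (adjusted p = 0.000855), and with at least 1000 UMIs per barcode -0.35 (adjusted p = 0.0126). It passed, as lower, in 5 of 19 alternatives, also with a mitochondrial share of at most 10% (-0.19, adjusted p = 0.0495) and with classes by marker UMIs (-0.20, adjusted p = 0.0467).

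**Figure D5:**
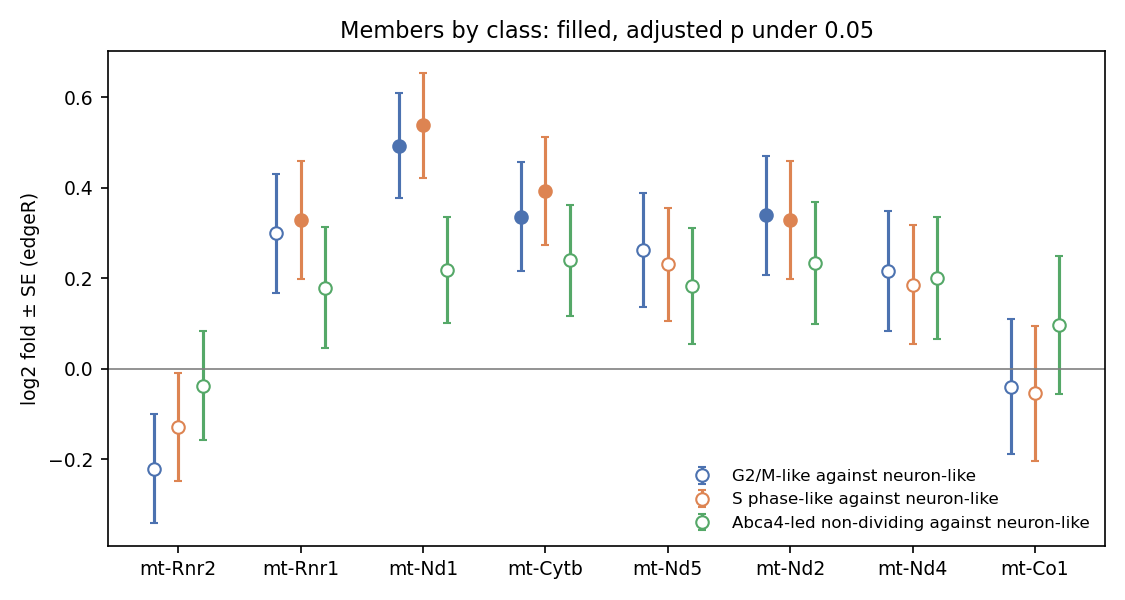
edgeR log2 fold ± SE of each transcript in G2/M-like, S phase-like and Abca4-led non-dividing cells against granule neuron-like cells, with the tumour as a block. Filled points passed at an adjusted p under 0.05, and open points did not. mt-Nd1 has the highest values (0.49 and 0.54), while mt-Rnr2 lies below 0 in these fits, with a positive sign under some other settings such as no block.

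Between Abca4-led non-dividing and granule neuron-like cells, no member passed edgeR's test, where 8.48% of all genes did. None had an unadjusted p under 0.05 either, and DESeq2, with 2.74% of genes called, called 0 members with 2 at an unadjusted p under 0.05, mt-Nd1 and mt-Cytb. The log2 folds were 0.24 ± 0.12 for mt-Cytb, 0.23 ± 0.13 for mt-Nd2, 0.22 ± 0.12 for mt-Nd1, 0.20 ± 0.13 for mt-Nd4, 0.18 ± 0.13 for mt-Nd5, 0.18 ± 0.13 for mt-Rnr1, 0.10 ± 0.15 for mt-Co1 and -0.04 ± 0.12 for mt-Rnr2 (SE). mt-Rnr1 and the 5 mRNAs other than mt-Co1 were higher than in neuron-like cells in 4 of 4 tumours. This result depended on which cells were counted as non-dividing. With the Atoh1-led unnamed cluster in place of the Abca4-led cells, 5 members passed, all of them higher, as did 32.5% of all genes. In the Atoh1-led cluster the S phase list was above other cells (mean log2 fold 0.47), so it did not meet the rule for non-dividing cells. With the 34 Ttr-led cells pooled into the Abca4-led class, as the rule reads, 6 passed, all higher, with 9.07% of all genes passing. These were mt-Nd2 (log2 fold 0.59, adjusted p = 0.00470), mt-Nd5 (0.55, 0.00628), mt-Nd4 (0.54, 0.0170), mt-Cytb (0.49, 0.00988), mt-Rnr1 (0.49, 0.0222) and mt-Nd1 (0.42, 0.0237). None of these 6 was called in the same fit without the 34 cells, of which tumour 3 had none.

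Between G2/M-like and Abca4-led cells, edgeR called 0 of 8 members, with 19.3% of all genes passing. mt-Nd1 alone had an unadjusted p under 0.05, with a log2 fold of 0.28 ± 0.12 (SE, adjusted p = 0.0893), and DESeq2 called mt-Nd1 alone, where 6.48% of 7806 genes passed. With the Ttr-led cells pooled, mt-Co1 and mt-Rnr2 were called as lower in G2/M-like cells, where 18.6% of genes passed. The median log2 fold of the members was 0.09.

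Clusters outside these 4 classes varied further. In the Atoh1-led unnamed cluster of 573 cells, the SHH list and the S phase list were above other cells (mean log2 folds 0.59 and 0.47). Its mRNA share was 2.44%, 2.15%, 1.06% and 0.959% in tumours 1 to 4. That was above each of the 4 compared classes in every tumour. Its rRNA share was 9.85%, 10.9%, 1.95% and 1.19%. An unnamed cluster of 408 cells led by Sntg2, with a median of 627.0 UMIs, had the highest rRNA share among the larger clusters in tumours 1 and 2, at 13.5% and 16.4%, but the lowest in tumour 4, at 0.848%.

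The small cluster led by Ttr, Enpp2 and Clu, of which Ttr and Enpp2 are known for their high level in choroid plexus, stood apart. Its mRNA share was 6.92%, 3.299% and 1.91% in tumours 1, 2 and 4, in 18, 12 and 4 cells, and tumour 3 had none of these cells. Its rRNA share was 26.6%, 9.50% and 3.78%. The 22 microglia or macrophage-like cells had an mRNA share of 3.31%, 1.96%, 1.09% and 1.14%, with only 9, 9, 1 and 3 cells. The 41 endothelial-like cells had 0.781%, 1.13%, 1.43% and 0.840%, and were thus below all other named clusters in tumours 1 and 2 but not in tumours 3 and 4. Oligodendrocyte lineage-like cells, 50 in all, had 1.97%, 2.21%, 1.001% and 0.805%. These groups are too small for a test by tumour, and no test was made.

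The nuclear genes that serve the mitochondrial genome were taken from lists chosen by function. Of 46 genes for its replication, transcription, RNA processing and translation, with proteases and nuclear regulators, 35 were in the tables and 7 passed the filter on low counts. Between S phase-like and neuron-like cells, 2 of these 7 rose, both DNA replication factors, and 1 fell. That is 42.9% called, against 42.5% of all genes tested, so the share is that of the background. Ssbp1, the single-stranded DNA-binding protein of the mitochondrial replisome, rose by a log2 fold of 0.90 ± 0.27 (SE, edgeR adjusted p = 0.00584). Peo1, the Twinkle helicase, rose by 0.96 ± 0.37 (adjusted p = 0.0317). Mtif2, the mitochondrial initiation factor, fell by 0.64 ± 0.27 on the log2 scale (adjusted p = 0.0482), and in G2/M-like cells it fell by 0.69 ± 0.27 (adjusted p = 0.0366).

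Of 76 mitoribosomal protein genes, which together with the rRNAs mt-Rnr1 and mt-Rnr2 form the mitoribosome, 38 were tested. In S phase-like against neuron-like cells 10 rose and none fell. The 10 are 26.3% of the list, against 23.3% of all genes higher and 19.3% lower, and the median log2 fold was 0.58, against 0.08 for all genes tested. The largest rises were those of Mrpl18 (1.34 ± 0.26, edgeR adjusted p = 1.64e-05), Mrpl28 (1.34 ± 0.33, adjusted p = 0.000686) and Mrpl39 (1.34 ± 0.52, adjusted p = 0.0313). In G2/M-like against neuron-like cells 4 of 38 rose (10.53%, against 20.7% of all genes) and none fell, where 17.3% of all genes did. The median was 0.28. The largest rises there were those of Mrpl30 (1.44 ± 0.43, adjusted p = 0.00608), Mrpl42 (1.32 ± 0.33, adjusted p = 0.000976) and Mrpl52 (1.05 ± 0.28, adjusted p = 0.00225). mt-Rnr2, the rRNA of the large subunit to which the Mrpl proteins belong, did not rise in either comparison.

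Of 57 nuclear genes for subunits of complexes I, III and IV, the partners of the mitochondrially encoded subunits, 54 were tested. In S phase-like against neuron-like cells 9 rose and 1 fell, which is 16.7% and 1.85% of the list, each below the share over all genes (23.3% higher, 19.3% lower). The median log2 fold was 0.20, against 0.08 for all genes tested. Ndufab1, the acyl carrier protein of complex I, rose by 1.05 ± 0.27 (SE, edgeR adjusted p = 0.00122), and Uqcr10 of complex III by 0.81 ± 0.23 (adjusted p = 0.00381), and Ndufs8 by 0.85 ± 0.34 (adjusted p = 0.0412). Ndufa1 was the gene that fell, by 0.62 ± 0.24 on the log2 scale (adjusted p = 0.0300). In G2/M-like cells 2 rose and 3 fell (3.70% and 5.56%), again below all genes (20.7% and 17.3%), with a median of 0.07 against 0.08. Ndufab1 rose there by 0.82 ± 0.28 (adjusted p = 0.0175) and Ndufa12 by 0.71 ± 0.21 (adjusted p = 0.00588), while Ndufv3 fell by 1.33 ± 0.32 on the log2 scale (adjusted p = 0.000513), Ndufa1 by 0.65 ± 0.24 (adjusted p = 0.0266) and Cox6b1 of complex IV fell by 0.45 ± 0.18 (adjusted p = 0.0390). In Abca4-led against neuron-like cells, where 8.48% of all genes passed edgeR's test, no gene of these 3 lists did. At an unadjusted p under 0.05 there were 1, 2 and 6 genes of the 3 lists in the order given. DESeq2, which called 2.74% of all genes in this comparison, called 0 of each list. Between G2/M-like and Abca4-led cells, where 19.3% of all genes passed, the one gene called was Mrps21, a protein of the small mitoribosomal subunit, which fell by 0.96 ± 0.33 on the log2 scale (edgeR adjusted p = 0.0339, lower in 3 of 4 tumours) and was not called by DESeq2. DESeq2 also called fewer genes of the lists in the dividing classes, 1, 3 and 2 for S phase-like and 0, 3 and 1 for G2/M-like against neuron-like cells. It called fewer of all genes too, 15.3% and 13.2% in these comparisons, against 42.5% and 38.0% with edgeR.

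The nuclear genes with the pattern most like that of the mitochondrial transcripts were ranked by Pearson's r of log2 CPM (UMI counts scaled to equal library size) over 16 sums (4 tumours by 4 classes), among 2360 genes with at least 200 UMIs. For the summed mRNAs they were Prrc2c (r = 0.98), Prpf38b (0.97), Chd6 (0.97), Eif4g1 (0.97) and D430041D05Rik (0.97). For the summed rRNAs they were Gm26924 (0.97), Prpf4b (0.96), Prrc2c (0.96), Trip11 (0.96) and Son (0.96). The summed mRNAs and rRNAs had r = 0.95 with each other. These sums share 4 libraries, and each of these genes was higher in tumours 1 and 2 than in tumours 3 and 4, as Prrc2c with mean log2 values of 11.06, 10.87, 9.53 and 9.51, so the values describe mainly the difference between tumours.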

How the data were processed

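The deposited tables hold whole-number UMI counts per gene and cell barcode, 1 table for each of 4 tumours, with no normalization. Reads were aligned with STAR to mm10, per the submitters' processing notes. The counting software, annotation and barcode filter are not given in the sources used here. The 11203 cell columns of 6 further tables could not be tied to a labelled sample and stayed out. Labels do not say that the tumours were from separate litters, so p-values speak for these samples only. The edgeR p-values of the main fit rest on the spread that remains once the level of each tumour is taken out. They do not measure the spread between tumours. The members, gene lists and tests were chosen with earlier results of these data known.

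Barcodes with at least 500 UMIs were kept, 3222 of 6734, holding 72.9% of UMIs. Doublets were called per tumour with Scrublet in scanpy 1.11.5 (expected share 6%), which marked 21 barcodes. The other 3201 were scaled to 10000 UMIs and log-transformed. The 2000 most variable nuclear genes were centred within each library, without mitochondrial, ribosomal protein, predicted, sex-linked and listed genes. They gave 30 principal components, 15 neighbours and Leiden clusters (leidenalg 0.10.2) at resolution 1. A name needed 4 markers of a list among the 50 leading genes, 1 among the first 10, and a mean log2 fold of 0.4. These naming limits, the minimum of 10 cells per sum and the exclusion of the Ttr-led cluster from the non-dividing class were set after seeing the data, the last with its mitochondrial share known and against the rule for that class, which pools it.

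UMI counts summed by tumour and class were fitted with edgeR 4.0.16 in R 4.3.3 (filterByExpr, TMM, quasi-likelihood test, adjusted p under 0.05), with 4 classes in 1 fit. The tumour was a block because the sums of a tumour come from 1 animal. Deviations of G2/M-like and neuron-like sums from their class means correlated with r of 0.68, 0.41, 0.48 and 0.64 in tumours 1 to 4 over 2360 genes. Standard errors are the log2 fold divided by the square root of F. The classes were built from the same cells, so p-values of nuclear genes used in the clustering are not independent of the classes. Tested on simulated data for G2/M-like against neuron-like sums (3382 genes), this fit recovered 100.0% of 4-fold and 64.0% of 2-fold rises and 55.1% of 2-fold and 95.8% of 4-fold falls, and false calls were 5.49% of the total. The simulation gave every gene the same dispersion and changed few genes, in the G2/M-like sums only. Its smallest change, 2-fold, was larger than the folds of the members in the main fit, so it does not give the recovery for them. Shares have exact Clopper-Pearson intervals at 95%. Shares by class were compared with an exact paired sign-flip permutation test (SciPy 1.17.1). Named genes were all 8 members, every other mitochondrial row, and of each list the counts and up to 3 called genes per direction with the largest fold.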

Additional observations from a re-analysis of the deposited data

Results flagged for a closer look

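Over 64 groups of 4 tumour values examined for a value far from the others, 2 stood out, and chance gives about 1 in 20. In tumour 3, the log2 ratio of mt-Nd4 between G2/M-like and neuron-like cells was -0.20, where tumours 1, 2 and 4 had 0.34, 0.25 and 0.28. The log2 ratio of mt-Co1 between Abca4-led and neuron-like cells was -0.36 in tumour 3, where tumours 1, 2 and 4 had 0.25, 0.32 and 0.23.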

How the results depend on the processing

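With 4 tumours, the tests by class were limited, since their exact permutation test could not go below p = 0.13. The mean mRNA share by tumour (1.49%) lay between 1.15% and 1.69% under its 9 alternatives, the rRNA share (5.85%) between 3.41% and 7.40%, and the rRNA part of mitochondrial UMIs (72.1%) between 67.8% and 77.0%, all within 1 SD. The higher mRNA share in dividing, and in Abca4-led, than in neuron-like cells and the lower rRNA part kept their direction in every alternative run, but not their size: the mRNA log2 ratio of G2/M-like to neuron-like cells (0.28) was 0.076 with classes by marker UMIs, and the lower rRNA part of Abca4-led cells (-3.22 points) ran from -4.39 to -1.40. Clusterings at several resolutions, and without centring, were viewed with their mitochondrial shares before the analysis was settled. The fits of tumours 1 and 2 or 3 and 4 only and the Atoh1-led cluster as the non-dividing class were chosen after seeing the data. So was leaving out the Ttr-led cluster, since the rule for non-dividing cells, as it reads, pools it. With classes by marker UMIs, here and below, each cell joined the class whose marker list was highest relative to its mean over cells. The non-dividing class of that setting was therefore the cells highest in the SHH list, and not the Abca4-led cells. No Abca4-led class of at least 10 cells per tumour was found at resolution 0.5, without centring, with at least 1000 UMIs or with a mitochondrial share of at most 10%, and no S phase-like class at resolution 0.5 or without centring, so these were not run there. For values that changed, the cause was not tested.

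Beside each count of members called stands, in brackets, the share of all genes called in the same fit. The 3 called higher in G2/M-like against neuron-like cells (38.0%) became 0 without the replicate block (14.4%), 1 with tumours 1 and 2 only (23.4%), 1 with at least 500 nuclear UMIs (40.1%), 1 with the Ttr-led cluster pooled (35.7%), mt-Nd1 each time, and 5, all higher, at resolution 2 (39.0%). They were 3 with DESeq2 (13.2%) and 4 with no filter on low counts (13.2%). Without each tumour in turn 1 to 2 were called (28.0% to 36.2%), and without tumour 1 or tumour 2 these were mt-Nd1, higher, and mt-Rnr2, lower. The 4 called higher in S phase-like against neuron-like cells (42.5%) became 0 without the replicate block (17.4%), 2 with tumours 1 and 2 only (25.6%, mt-Nd1 and mt-Nd2) and 2 with the Ttr-led cluster pooled (40.4%, mt-Nd1 and mt-Cytb). They rose to 6 at resolution 2 (38.1%), 5 with doublets kept (38.7%) and 5, with mt-Rnr2 as lower among them, with a mitochondrial share of at most 10% (41.6%). Without each tumour in turn there were 1 to 3 (32.0% to 39.9%), with mt-Rnr2, lower, among the 3 without tumour 2. With at least 1000 UMIs, 1 member was called in each of these comparisons (31.1% and 33.7%), mt-Rnr2 as lower, and all the calls of higher members were lost. The 0 called in Abca4-led against neuron-like cells (8.48%) became 1 with tumours 3 and 4 only (8.58%; mt-Rnr2, lower) and, all higher, 2 with at least 500 nuclear UMIs (23.3%), 4 at resolution 2 (21.2%), 6 with classes by marker UMIs (21.9%), 4 with doublets kept (7.23%), 5 with the Atoh1-led cluster (32.5%) and 6 with the Ttr-led cluster pooled (9.07%). The 0 called in G2/M-like against Abca4-led cells (19.3%) became 1 higher, mt-Nd1, with DESeq2 (6.48%) and with cells thinned to 500 UMIs (19.0%), and, all lower, 1 at resolution 2 (14.5%), 3 with classes by marker UMIs (6.80%), 2 with doublets kept (21%) and 2 with the Ttr-led cluster pooled (18.6%). Without the replicate block no member was called in any of the 4 comparisons. In the comparisons with Abca4-led cells, the counts with classes by marker UMIs and with the Atoh1-led cluster describe other cells than the Abca4-led ones.

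Some log2 folds changed sign. For G2/M-like against neuron-like cells, mt-Nd4 became -0.014 and mt-Nd5 -0.12 with at least 1000 UMIs. mt-Co1 became 0.15 with tumours 1 and 2 only, 0.0082 at resolution 2, 0.013 without centring and -0.22 to 0.13 without each tumour in turn, and mt-Rnr2 became 0.0035 without the replicate block. For S phase-like against neuron-like cells, mt-Nd4 became -0.0061 with tumours 3 and 4 only. mt-Co1 became 0.095 with tumours 1 and 2 only, 0.020 with a mitochondrial share of at most 10%, 0.061 at resolution 2, 0.065 with doublets kept and -0.18 to 0.063 without each tumour. mt-Rnr2 became 0.20 without the replicate block, 0.20 with tumours 1 and 2 only, 0.019 with doublets kept and -0.34 to 0.040 without each tumour. For Abca4-led against neuron-like cells, mt-Co1 became -0.13 with tumours 3 and 4 only, -0.013 with at least 500 nuclear UMIs, -0.022 with the Atoh1-led cluster and -0.018 to 0.22 without each tumour. mt-Rnr2 became 0.15 without the replicate block, -0.16 to 0.054 without each tumour, 0.18 with tumours 1 and 2 only, 0.0042 with at least 500 nuclear UMIs, 0.18 at resolution 2, 0.089 with classes by marker UMIs, 0.20 with doublets kept and 0.13 with the Ttr-led cluster pooled. For G2/M-like against Abca4-led cells, mt-Nd1 became -0.17 with classes by marker UMIs and -0.17 with the Atoh1-led cluster, and the sign of the other 7 members changed in 0 (mt-Co1 and mt-Rnr2) to 11 (mt-Nd4) of 18 alternatives.

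Of the log2 ratios by class, that of the rRNAs in S phase-like against neuron-like cells became 0.024 at resolution 2, 0.029 with doublets kept and -0.26 to 0.024 without each tumour in turn. In Abca4-led against neuron-like cells it became -0.010 with cells thinned to 500 UMIs and -0.064 to 0.12 without each tumour. The mRNA ratio of G2/M-like to Abca4-led cells became -0.030 at resolution 2, -0.30 with classes by marker UMIs, -0.15 with doublets kept, -0.19 with the Ttr-led cluster pooled and -0.00020 to 0.089 without each tumour.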
